A study of Mus musculus with 8 samples.

Results

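Ltf, Camp, Ngp, Lcn2, Mmp8, Cd177, Mmp9, Ly6g, S100a8 and S100a9 encode proteins of maturing and mature neutrophils: contents and membrane proteins of the late granules, a surface protein and both subunits of calprotectin. They are 10 of the 19938 genes that have a probe set of their own on the array. A probe set counted for a gene only where the array's annotation assigns it to that symbol alone, and the row with the highest mean stood for the gene. Each of the 10 had 1 such probe set, and all 10 passed the filter on dim genes.

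Neutrophils fill their granules in waves while they mature in the bone marrow. Myeloperoxidase and serine proteases go into the primary granules of promyelocytes, lactoferrin, cathelicidin and lipocalin 2 into the secondary granules of myelocytes and metamyelocytes, and gelatinase into the tertiary granules of later stages. C/EBP epsilon is needed for the secondary granule genes in mouse and in human. Mature neutrophils keep the granule proteins but have shut down most of their transcripts, whereas S100a8 and S100a9 stay strongly transcribed. The mouse spleen holds mature neutrophils and can also make granulocytes itself.

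RNA was measured in splenocytes, the mixed cells of a digested spleen, from 8 mice on Affymetrix Mouse Gene 1.0 ST arrays, with 1 array per mouse. The study compared lupus-prone Sle1.3 mice with wild type, and Sle1.3 mice that had lost 1 copy of E2-2 with both. Plasmacytoid dendritic cells depend on E2-2, a transcription factor whose gene is Tcf4. The groups were Sle1.3/E2-2het (3 mice, Sle1.3 and haplodeficient for E2-2), Sle1.3 (3 mice) and wild type (WT, 2 mice), all labelled as C57/B6. Sle1.3/E2-2het replicates 1 and 2 are labelled male and replicate 3 female. Sle1.3 replicates 1 and 2 are labelled female and replicate 3 male, and both WT mice are labelled male. Spleens of all groups were digested with collagenase and DNase, RNA came from the same number of cells of each spleen and 250 ng of it was labelled. The labels used here give no ages or litters, and E2-2het mice without Sle1.3 were not analysed here. The p-values therefore measure only the spread between these mice.

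The arrays fell into 2 sets. Sle1.3/E2-2het replicate 3 and Sle1.3 replicate 3 had lowest intensities of 11.2 and 10.9, where those of the 6 remaining arrays ran from 4.57 to 5.11. They are called the second set, which holds no WT mouse. Tcf4 had log2 intensities of 8.18 and 8.13 in Sle1.3/E2-2het replicates 1 and 2, and values of 8.67 and 8.63 were found for Sle1.3 replicates 1 and 2. In the second set Tcf4 was 9.25 in the mouse labelled Sle1.3/E2-2het and 9.06 in the Sle1.3 mouse, so it did not show the labelled genotype there. Xist, transcribed in females, was at 11.90 in Sle1.3 replicate 3, which is labelled male, and at 10.77 and 10.68 in Sle1.3 replicates 1 and 2. By Xist all 3 Sle1.3 mice were female and both WT mice male, so sex and genotype cannot be told apart in Sle1.3 versus WT.

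The promoters of the secondary granule genes and of calprotectin are shown because these genes moved together and because C/EBP factors act on this gene class. Each sequence runs 5′ to 3′ on the gene's strand, from 250 bases before the annotated start to 50 after it, and is credited to RefSeq on GRCm38.p6. Capitals mark matches to the C/EBP core TTNNGCAA or its reverse complement TTGCNNAA. Ltf lies at chr9:111019042-111019341 on the plus strand, Ngp at chr9:110419558-110419857 on the plus strand, Camp at chr9:109849407-109849706 on the minus strand, Lcn2 at chr2:32387690-32387989 on the minus strand, S100a8 at chr3:90668821-90669120 on the plus strand and S100a9 at chr3:90695672-90695971 on the minus strand.
Ltf: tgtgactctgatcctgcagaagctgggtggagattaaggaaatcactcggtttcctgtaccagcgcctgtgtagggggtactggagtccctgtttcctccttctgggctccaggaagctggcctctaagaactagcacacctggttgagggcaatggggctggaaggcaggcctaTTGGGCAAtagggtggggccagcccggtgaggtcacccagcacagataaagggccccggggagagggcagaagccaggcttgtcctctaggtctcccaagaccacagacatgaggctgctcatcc
Ngp: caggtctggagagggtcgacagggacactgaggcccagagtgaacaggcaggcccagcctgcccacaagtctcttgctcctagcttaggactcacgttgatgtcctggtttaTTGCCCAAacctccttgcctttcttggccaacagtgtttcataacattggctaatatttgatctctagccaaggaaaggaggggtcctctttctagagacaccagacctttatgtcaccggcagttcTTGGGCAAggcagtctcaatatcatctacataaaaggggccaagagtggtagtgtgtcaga
Camp: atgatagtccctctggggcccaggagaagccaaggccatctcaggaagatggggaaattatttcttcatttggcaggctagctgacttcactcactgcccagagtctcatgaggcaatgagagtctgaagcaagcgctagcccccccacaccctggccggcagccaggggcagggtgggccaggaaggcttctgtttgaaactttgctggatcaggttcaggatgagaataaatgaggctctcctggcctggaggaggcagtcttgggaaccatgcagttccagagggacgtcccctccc
Lcn2: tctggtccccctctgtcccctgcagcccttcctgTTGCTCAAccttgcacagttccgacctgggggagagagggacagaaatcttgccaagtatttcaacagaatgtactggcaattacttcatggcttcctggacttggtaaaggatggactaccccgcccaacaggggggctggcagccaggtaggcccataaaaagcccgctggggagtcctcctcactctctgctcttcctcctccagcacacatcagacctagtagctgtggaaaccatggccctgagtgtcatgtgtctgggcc
S100a8: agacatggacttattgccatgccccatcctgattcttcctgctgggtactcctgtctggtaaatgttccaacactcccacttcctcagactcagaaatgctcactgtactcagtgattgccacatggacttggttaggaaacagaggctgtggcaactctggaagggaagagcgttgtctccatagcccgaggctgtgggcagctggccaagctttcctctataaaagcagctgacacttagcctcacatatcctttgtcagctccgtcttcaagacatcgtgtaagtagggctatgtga
S100a9: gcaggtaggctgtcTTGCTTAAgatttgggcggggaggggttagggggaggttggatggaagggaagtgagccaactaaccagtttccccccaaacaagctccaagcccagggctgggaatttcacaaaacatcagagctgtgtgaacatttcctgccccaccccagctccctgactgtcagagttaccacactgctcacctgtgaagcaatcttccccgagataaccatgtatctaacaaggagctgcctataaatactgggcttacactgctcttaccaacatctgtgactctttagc

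RefSeq promoters were listed for 9 of the 10 genes, and 6 of the 9 (Ltf, Ngp, Lcn2, Mmp8, S100a9 and Ly6g) held a C/EBP match, against 10.8% of 32851 promoters of the same length. A gene was counted if any of its listed promoters matched, whereas the share is per promoter. Ly6g had windows starting at chr15:75155011 and chr15:75155079, and only the first held the C/EBP match. The Ltf match TTGGGCAA starts 75 bases before the gene's start. Ngp holds the same letters 11 bases before its start and TTGCCCAA 138 bases before it. No C/EBP match stood in the windows of Camp and S100a8. On either strand, GAGGAA, an ETS-type core of the kind PU.1 binds, was in promoters of 6 of the 9 genes against 28.3% of all promoters. The GATA core AGATAA, on either strand, was in promoters of 2 of the 9 genes against 11.2%. Matches of these 3 motifs did not overlap in the promoters of the 9 genes. A match describes letters and is not a bound site.

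The late granule and calprotectin genes were higher in the spleens of both Sle1.3 genotypes than in WT spleens. In Sle1.3 versus WT 8 of the 10 rose and none fell, at an adjusted p under 0.05 in limma, where 5.88% of the 14953 genes tested passed (2.66% rose and 3.22% fell). In Sle1.3/E2-2het versus WT 7 of the 10 rose and none fell, where 7.20% of the genes passed (3.46% rose and 3.74% fell). The median difference of the 10 genes was 2.71 in Sle1.3 and 2.51 in Sle1.3/E2-2het, against 0.03 and -0.01 over all genes tested. Both comparisons use the same 2 WT arrays. In mixed spleen cells a larger number of neutrophils and more RNA per neutrophil cannot be told apart.

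**Figure D1:**
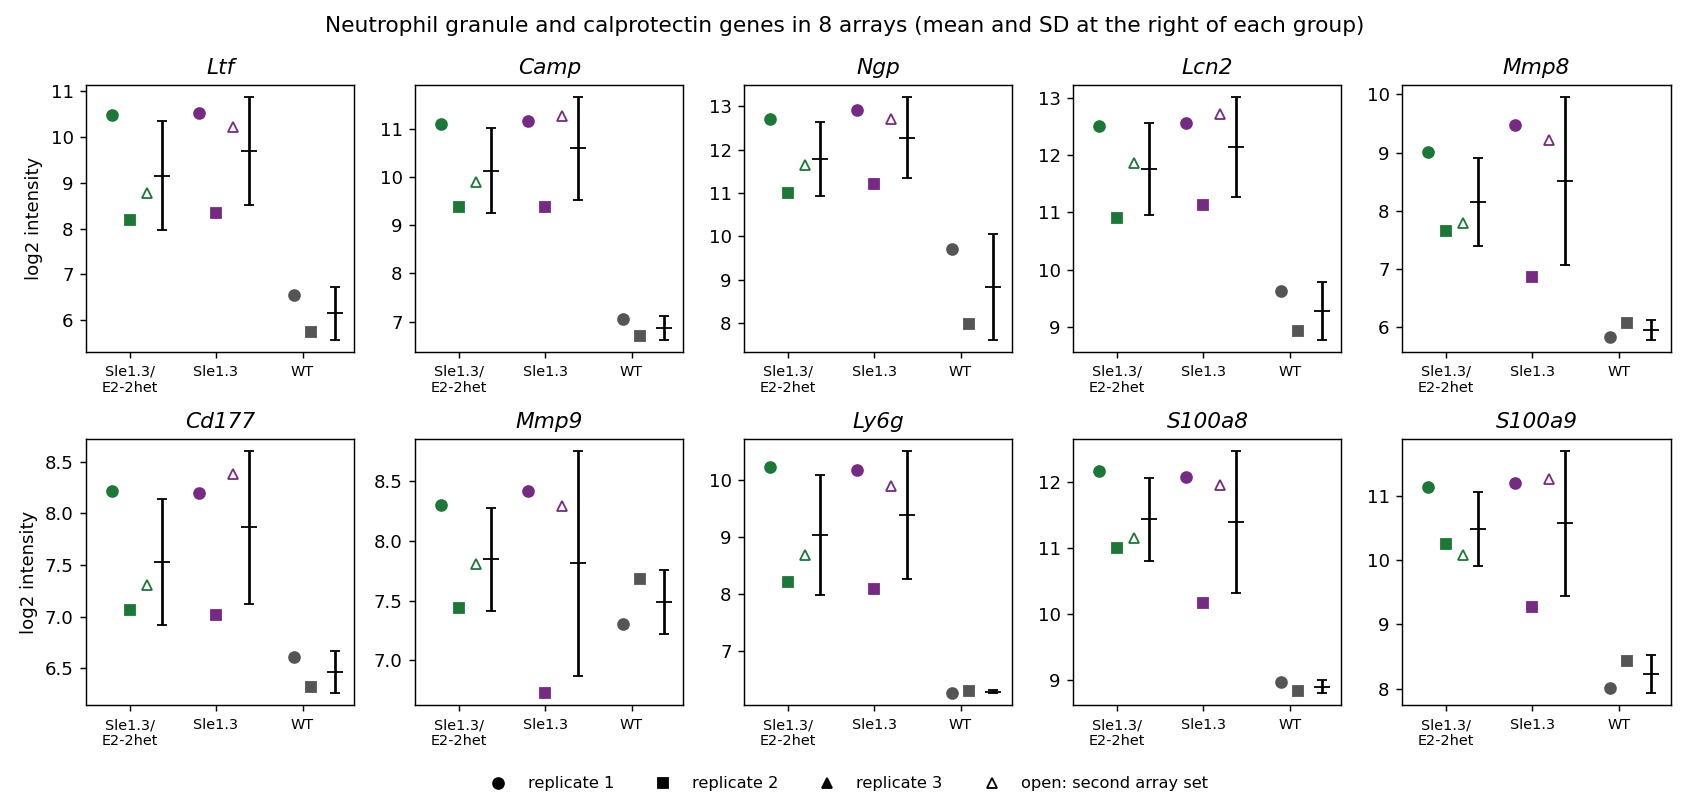
Log2 intensity (y axis, a separate scale for each gene) of the 10 genes in every array, with Sle1.3/E2-2het left, Sle1.3 in the middle and WT right; the bars at the right of each group give its mean and SD, and open triangles are second-set arrays. In 9 of the 10 genes every Sle1.3/E2-2het and every Sle1.3 array lies above both WT arrays, and Mmp9 is the exception.

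Lactoferrin, encoded by Ltf, binds iron and is the classic content of secondary granules. Ltf had log2 intensities of 10.49, 8.19 and 8.79 in Sle1.3/E2-2het, 10.52, 8.33 and 10.22 in Sle1.3, with WT at 6.56 and 5.74. Every Sle1.3/E2-2het and Sle1.3 array was above both WT arrays, and replicate 2 was the lowest of either Sle1.3 genotype. The Ltf difference from WT was 3.01 in Sle1.3/E2-2het (SE 0.69, adjusted p = 0.0298) and 3.54 in Sle1.3 (SE 0.69, adjusted p = 0.0173), or 8.04-fold and 11.6-fold on the linear scale.

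Camp encodes the cathelicidin antimicrobial peptide of the same granules. Camp was at 11.11, 9.39 and 9.90 in Sle1.3/E2-2het, 11.17, 9.38 and 11.27 in Sle1.3, with WT at 7.04 and 6.69. The WT arrays lay close together and more than 2 log2 units below every other array. Camp had the largest difference among the 10 genes in both comparisons, 3.27 in Sle1.3/E2-2het (SE 0.56, adjusted p = 0.0115) and 3.74 in Sle1.3 (SE 0.56, adjusted p = 0.00828).

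Ngp, the neutrophilic granule protein of the mouse, is related to the cathelicidins. Ngp was at 12.71, 11.01 and 11.64 in Sle1.3/E2-2het, 12.92, 11.21 and 12.71 in Sle1.3, with WT at 9.71 and 7.98. The WT mice differed from each other by 1.73, the widest WT gap of the 10 genes, and still did not overlap with the Sle1.3 genotypes. The Ngp difference from WT was 2.95 in Sle1.3/E2-2het (SE 0.61, adjusted p = 0.0229) and 3.44 in Sle1.3 (SE 0.61, adjusted p = 0.0139).

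Lcn2 encodes lipocalin 2, which binds bacterial siderophores and so withholds iron. Lcn2 was at 12.51, 10.91 and 11.87 in Sle1.3/E2-2het, 12.56, 11.14 and 12.73 in Sle1.3, with WT at 9.63 and 8.92. Lcn2 is also made by stimulated macrophages and epithelium, and all Sle1.3/E2-2het and Sle1.3 arrays again stood above both WT arrays. Its difference from WT was 2.49 in Sle1.3/E2-2het (SE 0.51, adjusted p = 0.0212) and 2.87 in Sle1.3 (SE 0.51, adjusted p = 0.0135).

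Mmp8 encodes the neutrophil collagenase of secondary granules. Mmp8 was at 9.01, 7.66 and 7.78 in Sle1.3/E2-2het, 9.47, 6.86 and 9.21 in Sle1.3, with WT at 5.84 and 6.08. Sle1.3 replicate 2 came closest to WT but was still above both WT mice. The difference from WT passed in Sle1.3 (2.56, SE 0.65, adjusted p = 0.0445) and missed the threshold in Sle1.3/E2-2het (2.20, SE 0.65, adjusted p = 0.0614). That split does not show a difference between the genotypes, whose own comparison gave an interval of -1.64 to 0.92 for Mmp8.

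Cd177 encodes a membrane protein of secondary granules and of the cell surface of some neutrophils. Cd177 was at 8.22, 7.06 and 7.31 in Sle1.3/E2-2het, 8.20, 7.02 and 8.38 in Sle1.3, with WT at 6.61 and 6.32. The groups did not overlap with WT, but the differences of 1.07 in Sle1.3/E2-2het (SE 0.41, adjusted p = 0.117) and 1.41 in Sle1.3 (SE 0.41, adjusted p = 0.0673) missed the threshold.

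Mmp9 encodes gelatinase B, the marker content of tertiary granules, and is also transcribed in macrophages. Mmp9 was at 8.30, 7.44 and 7.80 in Sle1.3/E2-2het, 8.42, 6.72 and 8.29 in Sle1.3, with WT at 7.30 and 7.68. Here the groups overlapped: Sle1.3 replicate 2 had the lowest value of all 8 arrays, and Sle1.3/E2-2het replicate 2 fell between the WT mice. The difference from WT was 0.36 in Sle1.3/E2-2het (95% interval -0.61 to 1.32, adjusted p = 0.591) and 0.32 in Sle1.3 (-0.64 to 1.28, adjusted p = 0.675). Both intervals end below the differences of the 7 genes that passed in both comparisons.

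Ly6g encodes the surface protein used to identify mouse neutrophils. Ly6g was at 10.23, 8.21 and 8.68 in Sle1.3/E2-2het, 10.18, 8.09 and 9.90 in Sle1.3, with WT at 6.26 and 6.30. The WT mice were nearly equal, and every other array was higher. The Ly6g difference from WT was 2.76 in Sle1.3/E2-2het (SE 0.62, adjusted p = 0.0278) and 3.11 in Sle1.3 (SE 0.62, adjusted p = 0.0188). Ly6 genes are alike in sequence and may share probes.

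S100a8 and S100a9 encode the subunits of calprotectin, a cytosolic protein of neutrophils and monocytes that binds calcium, zinc and manganese. S100a8 was at 12.16, 11.0026 and 11.14 in Sle1.3/E2-2het, 12.07, 10.16 and 11.95 in Sle1.3, with WT at 8.98 and 8.83. S100a9 was at 11.14, 10.24 and 10.07 in Sle1.3/E2-2het, 11.19, 9.27 and 11.26 in Sle1.3, with WT at 8.01 and 8.43. Both were above WT in every array of the Sle1.3 genotypes, and Sle1.3 replicate 2 was the lowest of these arrays in both. The S100a8 difference from WT was 2.53 in Sle1.3/E2-2het (SE 0.51, adjusted p = 0.0200) and 2.49 in Sle1.3 (SE 0.51, adjusted p = 0.0204). The S100a9 difference was 2.26 in Sle1.3/E2-2het (SE 0.52, adjusted p = 0.0300) and 2.35 in Sle1.3 (SE 0.52, adjusted p = 0.0270).

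Every Sle1.3 array was above both WT arrays in 9 of the 10 genes, where this held for 21.5% of the genes tested, and the same count and genes applied to Sle1.3/E2-2het, where it held for 25.9%. Both at once held for 16.3% of the genes tested. These calls rest on the 2 WT mice and did not hold in limma without either one. The remaining WT mouse then gave no spread of its own and was assumed to vary like the other groups. Median differences of the 10 genes were then 2.39 and 2.67 in Sle1.3/E2-2het and 2.57 and 2.83 in Sle1.3. The loss was general: over all genes tested 5 and 39 passed in Sle1.3/E2-2het, against 1076 with both WT mice, and 2 and 9 in Sle1.3, against 879. On the first set alone, with 2 mice a group, 9 of the 10 rose in Sle1.3/E2-2het and 8 in Sle1.3, where 10.6% and 5.16% of the genes tested rose and 23.4% and 10.7% fell. The first-set Sle1.3/E2-2het mice were male by Xist (3.79 and 4.29), as were the WT mice (4.12 and 3.75). Without Sle1.3/E2-2het replicate 1 only Camp passed in that genotype, and without Sle1.3 replicate 1 only Camp, Ngp and Lcn2 passed in Sle1.3. All calls then numbered 349 and 172, and the medians of the 10 genes were 2.14 and 2.40.

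**Figure D2:**
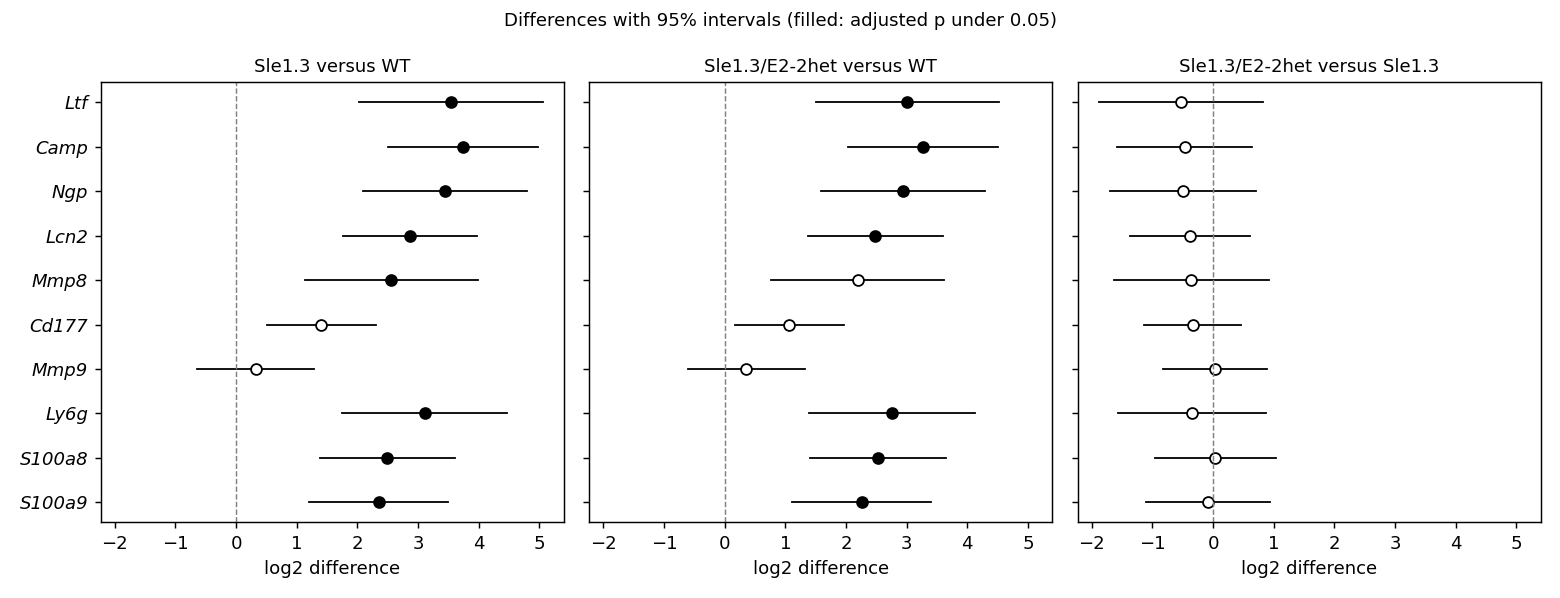
Log2 difference (x axis) with its 95% interval for each gene (rows), with both Sle1.3 genotypes set against WT in the left and middle panels and Sle1.3/E2-2het against Sle1.3 at the right; filled points passed at an adjusted p under 0.05. The points lie right of 0 in both comparisons with WT, nearest to it for Mmp9, and all intervals of the right panel span 0.

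Sle1.3/E2-2het spleens, set against Sle1.3 spleens, showed no change in the 10 genes that passed in limma: none was at an unadjusted p under 0.05, and every adjusted p was 1.00. Of all genes tested 0.0134% passed in this comparison. In no gene did the groups stand apart, which 3.04% of the genes tested did with Sle1.3/E2-2het higher and 4.33% with it lower. The median difference of the 10 genes was -0.36, against 0.0017 over all genes tested. Single mice moved that median: it was -0.94 without Sle1.3 replicate 2, with 7 of the 10 genes at an unadjusted p under 0.05, and -0.77 without Sle1.3/E2-2het replicate 1, with 1. Counts at that level are given without the share of all genes and are not read as a result about the 10 genes. Leaving out replicate 1 or 3 of Sle1.3 gave -0.04 and -0.08, and leaving out replicate 2 or 3 of Sle1.3/E2-2het gave -0.0093 and -0.20, with none of the 10 at that level. No gene of the 10 passed after any of the 8 mice was left out. Ltf differed by -0.53 (95% interval -1.88 to 0.82), Camp by -0.47 (-1.58 to 0.64), S100a8 by 0.04 (-0.96 to 1.03) and S100a9 by -0.09 (-1.11 to 0.94). With 3 mice in each group these intervals hold changes of either sign, so the data do not show that the genotypes are alike. In the first set the mice of this comparison were male against female by Xist, and in the second set female against female.

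Pairs of mice with the same replicate number differed from one another in this respect. In the replicate 1 pair the median of the 10 differences was -0.05, with a range of -0.45 to 0.08. In the replicate 2 pair it was 0.08, from -0.23 for Lcn2 to 0.97 for S100a9, and Mmp8, Mmp9, S100a8 and S100a9 made up the upper end. In the replicate 3 pair, which is the second set, all 10 genes were lower in the mouse labelled Sle1.3/E2-2het, by a median of -1.13 and a range of -1.43 for Ltf to -0.49 for Mmp9. That pair is 1 mouse against 1 mouse and allows no test. On the first set alone the median of the 10 differences was 0.06 and no gene passed, where 0.140% of the genes tested were higher and 0.388% lower. With the replicate number as a block no member of the 10 passed either, and the smallest adjusted p was 0.180, for Ngp, where 0.548% of the genes were higher and 1.20% lower.

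**Figure D3:**
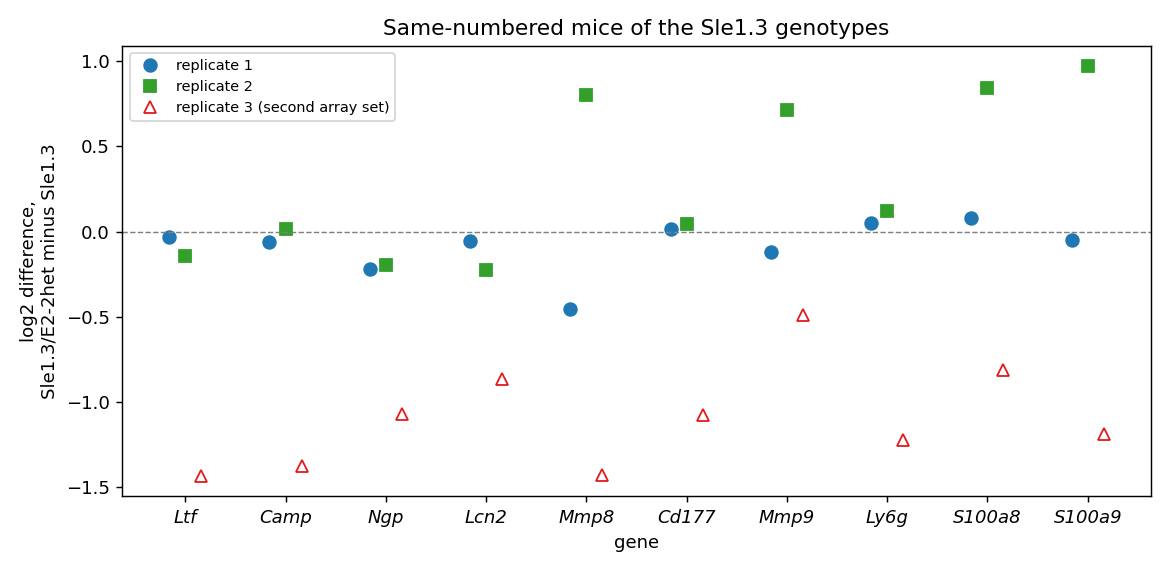
Log2 difference, Sle1.3/E2-2het minus Sle1.3 (y axis), for each gene (x axis) in the pairs of mice with replicate number 1, 2 and 3; open triangles are the second-set pair. The replicate 1 and 2 pairs scatter about 0, and the replicate 3 pair is below 0 for all 10 genes.

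The 10 genes also varied together within a genotype. Sle1.3/E2-2het replicate 1 was the highest of its group in 10 of 10 genes, and replicate 2 the lowest in 9, with S100a9 lowest in replicate 3. Sle1.3 replicate 2 was the lowest of its group in 10 of 10 genes, and replicate 1 was the highest in 6 and replicate 3 in 4. The difference of replicate 1 minus replicate 2 had a median of 1.48 over the 10 genes in Sle1.3/E2-2het (0.86 for Mmp9 to 2.29 for Ltf) and 1.86 in Sle1.3 (1.18 for Cd177 to 2.61 for Mmp8), against 0.22 in WT (-0.42 for S100a9 to 1.73 for Ngp). For 95% of all genes tested the size of that gap was at most 0.57 in Sle1.3/E2-2het, 0.50 in Sle1.3 and 0.56 in WT, so the spread of these genes between same-genotype mice of the Sle1.3 groups exceeded that of most genes. Above the WT mean, the median of the 10 genes stood at 3.24, 1.98 and 2.32 for Sle1.3/E2-2het replicates 1 to 3 and at 3.40, 1.53 and 3.35 in the Sle1.3 mice, with WT at 0.11 and -0.11.

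Across the 8 arrays Ly6g was closest to the median profile of the 10 genes, with a mean absolute difference of 0.146 log2 units after each gene's own mean was removed. The 10 genes make up that profile themselves, so their own closeness to it is partly built in. S100a8 (0.193), Lcn2 (0.196) and Mmp8 (0.200) came next, and Cd177 (0.505) and Mmp9 (0.839) were farthest. Among the 14943 other genes tested, where the median was 1.10, the nearest were Ly6a2 (0.234), Chil3 (0.260), Retnlg (0.279), Prtn3 (0.298), Elane (0.331), Anxa1 (0.344), Ctsg (0.364) and G530011O06Rik (0.378). Chil3 encodes a chitinase-like granule protein, Retnlg a resistin-like protein of neutrophils, and Prtn3, Elane and Ctsg the serine proteases of primary granules. Ly6a2 is a relative of Ly6g and may share probes with it, and the likeness describes these 8 arrays only.

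Primary granule genes, transcribed one stage earlier than the genes above, were also higher than in WT. Of 6 tested (Mpo, Elane, Prtn3, Ctsg, Ms4a3 and Prss57), 3 rose and none fell in Sle1.3/E2-2het, with a median difference of 1.80, and 5 rose and none fell in Sle1.3, with a median of 3.02. In that fit 3.46% of all genes tested rose in Sle1.3/E2-2het and 2.66% in Sle1.3. With the replicate number as a block or on the first set alone 5 rose in each genotype. Of all genes tested 12.8% rose with the block and 10.6% on the first set in Sle1.3/E2-2het, and 9.19% and 5.16% in Sle1.3. Elane, neutrophil elastase, was at 9.38, 8.14 and 8.53 in Sle1.3/E2-2het, 10.24, 8.75 and 10.42 in Sle1.3, with WT at 6.75 and 5.98. Replicate 2 was again the lowest mouse of either Sle1.3 genotype. Its difference from WT was 2.32 in Sle1.3/E2-2het (SE 0.48, adjusted p = 0.0228) and 3.44 in Sle1.3 (SE 0.48, adjusted p = 0.00758). Set against Sle1.3, the 6 genes had a median difference of -1.10 in Sle1.3/E2-2het, and none passed. With the replicate number as a block 3 of them were lower in Sle1.3/E2-2het: Mpo by -1.36 (adjusted p = 0.0206), Elane by -1.12 (adjusted p = 0.0184) and Prtn3 by -1.08 (adjusted p = 0.0120), where 1.20% of all genes tested were lower. On the first set alone, where Tcf4 was lower in Sle1.3/E2-2het, none of the 6 passed. A test of whether primary and late granule genes differed in this respect was not made.

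Further secondary and tertiary granule genes formed a list of their own. Of 15 tested, 2 rose and none fell in Sle1.3/E2-2het (median difference 0.85), and 5 rose and none fell in Sle1.3 (median 1.00). In that fit 3.46% of all genes tested rose in Sle1.3/E2-2het and 2.66% in Sle1.3. Chil3 rose by 2.53 in Sle1.3/E2-2het (adjusted p = 0.0449) and 2.82 in Sle1.3 (adjusted p = 0.0328), and Ceacam10 by 0.88 (adjusted p = 0.0341) and 1.00 (adjusted p = 0.0220). Slpi, a protease inhibitor, rose by 1.90 in Sle1.3 (adjusted p = 0.0173) and Olfm4, olfactomedin 4, by 1.32 (adjusted p = 0.0395). Anxa1, the annexin of gelatinase granules, was the fifth to pass in Sle1.3 (2.01, adjusted p = 0.0475). With the replicate number as a block 9 of the 15 rose in Sle1.3/E2-2het and 10 in Sle1.3, and on the first set alone 5 and 6. The shares of all genes tested that rose were 12.8% and 9.19% with the block, and 10.6% and 5.16% on the first set.

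A list of receptor, cytokine and other genes of mature neutrophils had medians closer to the WT level. It shares Mmp25, a membrane metalloproteinase, with the list before it. Of 17 tested, 1 rose and none fell in Sle1.3/E2-2het, with a median difference of -0.0023, and 1 rose and 1 fell in Sle1.3, with a median of -0.36. Such counts are near the background. Of all genes tested 3.46% rose and 3.74% fell in Sle1.3/E2-2het, and 2.66% rose and 3.22% fell in Sle1.3. The list gene that rose in both genotypes was Retnlg, by 1.81 (adjusted p = 0.0409) and 2.12 (adjusted p = 0.0248). Ptafr, the platelet-activating factor receptor, fell by 1.27 in Sle1.3 (adjusted p = 0.0395). Cxcr2, the receptor for neutrophil chemokines, was at 7.80, 8.01 and 7.71 in Sle1.3/E2-2het, 7.36, 5.56 and 6.99 in Sle1.3, with WT at 6.66 and 7.33. Sle1.3 replicate 2, lowest in the 10 late granule and calprotectin genes within its group, was also lowest in Cxcr2, and the Sle1.3/E2-2het mice were above all other mice. The difference of Sle1.3/E2-2het from Sle1.3 was 1.20 (SE 0.38, adjusted p = 0.682), and for Clec4d, a C-type lectin receptor, it was 1.06 (SE 0.31, adjusted p = 0.541). With the replicate number as a block 2 rose and 1 fell in Sle1.3/E2-2het versus WT and 1 rose and 6 fell in Sle1.3 versus WT, and on the first set alone 2 and 1, and 1 and 4. With the block 12.8% of all genes tested rose and 27.4% fell in Sle1.3/E2-2het, and 9.19% rose and 20.3% fell in Sle1.3. On the first set 10.6% rose and 23.4% fell in Sle1.3/E2-2het, and 5.16% rose and 10.7% fell in Sle1.3. No gene of this list passed between the Sle1.3 genotypes in limma, with 7 of the 17 at an unadjusted p under 0.05. The share of all genes at that level is not given here, so this count is not read as a result about the list.

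**Figure D4:**
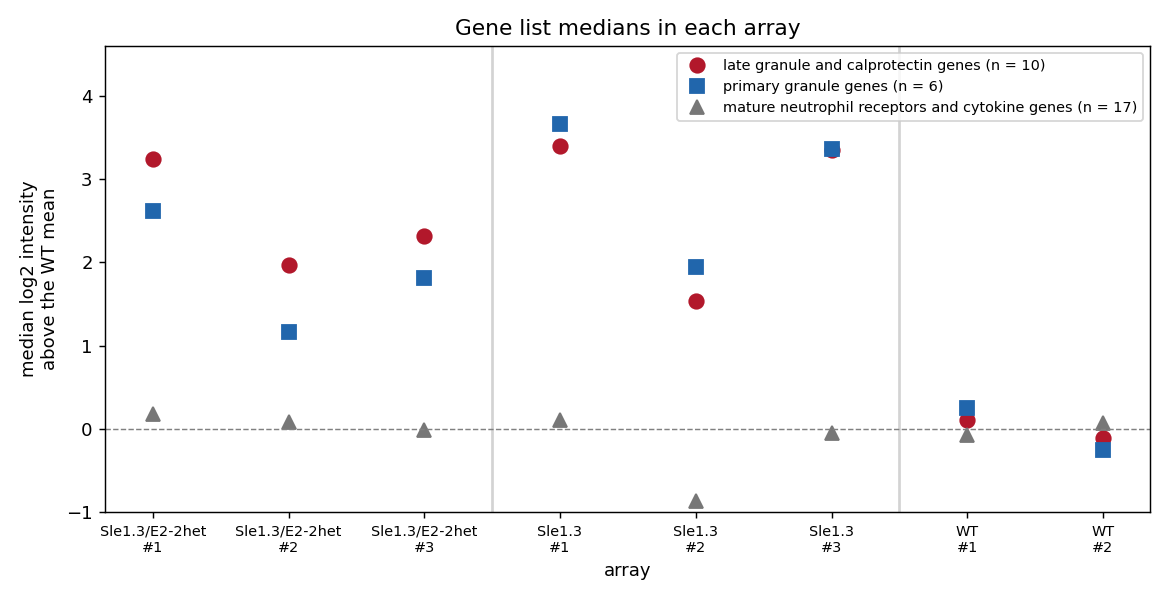
Median log2 intensity above the WT mean (y axis) of the 10 late granule and calprotectin genes, the 6 primary granule genes and the 17 mature neutrophil receptor and cytokine genes, in each array (x axis, # gives the replicate number). Both granule groups are at 1.16 or more in every Sle1.3/E2-2het and Sle1.3 array, and the receptor group lies between -0.87 and 0.19 in all 8 arrays.

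Of 12 regulators of granulocyte differentiation tested, none rose and 1 fell in each Sle1.3 genotype. In that fit 3.74% of all genes tested fell in Sle1.3/E2-2het and 3.22% in Sle1.3. The count of regulators depended on the fit: on the first set alone none rose and 4 fell in each. There 23.4% of all genes tested fell in Sle1.3/E2-2het and 10.7% in Sle1.3. With the replicate number as a block 2 rose and 5 fell in Sle1.3/E2-2het, where 12.8% of all genes rose and 27.4% fell, and 1 rose and 5 fell in Sle1.3, where 9.19% rose and 20.3% fell. Stat3, which relays G-CSF signals, fell by 0.94 in Sle1.3/E2-2het (adjusted p = 0.0215), and Myb, a factor of immature progenitors, fell by 0.74 in Sle1.3 (adjusted p = 0.0479). Cebpe, the gene of C/EBP epsilon, was at 7.77, 6.96 and 6.87 in Sle1.3/E2-2het, 7.95, 6.87 and 7.62 in Sle1.3, with WT at 6.92 and 6.09. It differed from WT by 0.70 in Sle1.3/E2-2het (adjusted p = 0.225) and 0.97 in Sle1.3 (adjusted p = 0.140) and overlapped with WT in both. With the block the differences were 0.74 (adjusted p = 0.00601) and 1.02 (adjusted p = 0.00139). The block also ties WT mice to same-numbered mice of both Sle1.3 genotypes, a pairing that the labels do not give. Of 6 neutrophil chemoattractant genes none passed in Sle1.3/E2-2het in limma, with 1 at an unadjusted p under 0.05, as were 4356 of the 14953 genes tested. Ppbp, a chemokine of platelets, rose by 1.80 in Sle1.3 (adjusted p = 0.00927).

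Relatives and partners of the 10 genes are given beside the background of 7.20% of all genes tested called in Sle1.3/E2-2het and 5.88% in Sle1.3. At an unadjusted p under 0.05 in limma were 4356 of the 14953 genes tested in Sle1.3/E2-2het versus WT and 3461 in Sle1.3 versus WT. Of 9 other S100 genes, 1 rose in Sle1.3/E2-2het (S100a16, 0.74, adjusted p = 0.0453) and none passed in Sle1.3, with 2 at an unadjusted p under 0.05 in limma. Of 13 other matrix metalloproteinase genes, 1 rose in Sle1.3/E2-2het (Mmp3, the stromelysin gene, 0.73, adjusted p = 0.0461) and none passed in Sle1.3, with 2 at an unadjusted p under 0.05. None of 6 other Ly6 genes passed against WT, with 1 at an unadjusted p under 0.05 in each comparison. Ly6a2, the relative of Ly6g named above, is not on that list. It rose by 2.42 in Sle1.3 (adjusted p = 0.02695), and its difference of 1.86 in Sle1.3/E2-2het missed the threshold (adjusted p = 0.0580). Of 12 genes of partners, receptors and inhibitors, which include the calprotectin receptors Tlr4, Ager and Emb and the metalloproteinase inhibitors Timp1 to Timp3, none passed in Sle1.3/E2-2het, with 4 at an unadjusted p under 0.05. In Sle1.3 the only one of them to pass was Emb, embigin, which fell by 1.03 (adjusted p = 0.0381).

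Markers of other cells also moved with genotype, and their part in the results above was not tested. Of all 14953 genes tested, 4356 were at an unadjusted p under 0.05 in limma in Sle1.3/E2-2het versus WT and 3461 in Sle1.3 versus WT. At an adjusted p under 0.05, the level of the calls below, 3.46% of all genes rose and 3.74% fell in Sle1.3/E2-2het. In Sle1.3 2.66% rose and 3.22% fell. Monocyte markers, cells that transcribe S100a8 and S100a9 too, had summed linear intensities of 1856 to 2447 in Sle1.3/E2-2het, 1759 to 3346 in Sle1.3 and 1359 to 1936 in WT. None of the 9 tested passed in Sle1.3/E2-2het versus WT in limma, with 4 at an unadjusted p under 0.05, and 3 rose in Sle1.3 versus WT (Fcgr4, Cd300e and Ms4a6d). Red pulp macrophage markers summed to 2952 to 4880 in Sle1.3/E2-2het, 2565 to 3531 in Sle1.3 and 1466 to 2188 in WT, with 7 and 2 of 10 higher than in WT. Markers of dividing cells summed to 1472 to 1964 in Sle1.3/E2-2het, 1943 to 3199 in Sle1.3 and 876.0 to 890.9 in WT, with 2 and 5 of 5 higher. Epithelial markers, from a tissue type that can transcribe Lcn2, summed to 201 to 251 in Sle1.3/E2-2het, 229 to 241 in Sle1.3 and 174 to 204 in WT, and none of 4 passed. Eosinophil markers summed to 522 to 716 in Sle1.3/E2-2het, 537 to 1424 in Sle1.3 and 424 to 468 in WT, and basophil and mast cell markers to 287 to 354, 246 to 793 and 196 to 197 in these groups. Of 6 eosinophil markers tested, 1 rose and 1 fell in Sle1.3/E2-2het versus WT, and 3 rose and 1 fell in Sle1.3 versus WT. Il5ra was the one that fell, by -1.27 in Sle1.3/E2-2het (adjusted p = 0.00861) and -1.54 in Sle1.3 (adjusted p = 0.00635). Of the megakaryocyte and platelet markers none of 4 passed in Sle1.3/E2-2het versus WT, with 2 at an unadjusted p under 0.05 in limma, and 3 rose in Sle1.3 versus WT. Of the natural killer cell markers 1 of 7 rose and 2 fell in Sle1.3/E2-2het and 3 fell in Sle1.3, and of the plasmacytoid dendritic cell markers 2 and 3 of 7 fell. Fcgr4, an Fc receptor gene placed on the monocyte list here, was lower in Sle1.3/E2-2het than in Sle1.3 (-2.33, adjusted p = 0.0432), 1 of the 2 calls in that comparison. Which cells its RNA came from was not tested. B cell markers, which bear out the labelled tissue, summed to 9041 to 13500 in Sle1.3/E2-2het, 10030 to 11580 in Sle1.3 and 11520 to 14100 in WT. The same sums of the 10 late granule and calprotectin genes ran from 9023 to 25310 in Sle1.3/E2-2het, 7995 to 26730 in Sle1.3 and 2126 to 3007 in WT.

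The 10 genes lie on 5 autosomes. Camp (chr9:109847377-109849456), Ngp (chr9:110419808-110423012) and Ltf (chr9:111019292-111042766) stand in this order on mouse chromosome 9 in GRCm38.p6, with 570.4 and 596.3 kb between neighbours. RefSeq lists 46 genes from Camp to Ltf, and of the 26 others tested 1 rose (Tdgf1) and 1 fell in Sle1.3/E2-2het and likewise in Sle1.3, with median differences of 0.20 and 0.09. That share is near the background, where 3.46% of all genes tested rose in Sle1.3/E2-2het and 2.66% in Sle1.3. S100a8 (chr3:90669071-90670034) and S100a9 (chr3:90692630-90695721) are 22.6 kb apart with no other annotated gene between them. Lcn2 (chr2:32384637-32387739) and Mmp9 (chr2:164940326-164955850) are on chromosome 2, Mmp8 (chr9:7558429-7568486) is far from the Camp to Ltf stretch, Cd177 (chr7:24743983-24760334) is on chromosome 7, and Ly6g (chr15:75155261-75159128) is on chromosome 15.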

How the data were processed

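The table the authors deposited holds a linear intensity for each of 35556 probe sets in each array. The submitters' processing notes name RMA and Affymetrix Expression Console, and their versions are not given in the sources used here. The array annotation gave 21789 probe sets 1 gene, 1621 several and 12146 none, and only the first kind was used. Log2 was taken, and genes with a mean above the 25th percentile (5.01) were tested, 14953 in all. One limma 3.58.1 fit (R 4.3.3, lmFit and eBayes, two-sided) held the 3 groups, with 5 residual degrees of freedom, and p-values were adjusted by Benjamini and Hochberg over all genes tested at 0.05. Labelled sex was left out because the sex-linked transcripts of 1 mouse go against its label. The fit was tested on simulated data. Precision is limited by the number of arrays, and the table holds no detection calls.

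The 10 genes, the lists and the rule for naming genes were chosen with earlier results of these data known. Named were all 10 genes, up to 4 members of a list that passed in a comparison or the 2 with the smallest p, and the 8 genes of most like profile; not all of them are printed, and Cebpe and Tdgf1 were named after their values were seen. Sle1.3/E2-2het mice and the Sle1.3 mice of the same number deviated together from their group means over all genes tested (correlations of 0.573, 0.369 and 0.618), so the numbers were taken to pair these mice, from the data and not from the labels; the third pair is also the second array set. Same-numbered Sle1.3 and WT mice gave -0.0768 and 0.214, and same-numbered Sle1.3/E2-2het and WT mice 0.151 and 0.16. Calls against WT with the replicate block therefore rest on a pairing with WT that was not shown. Alternatives were labelled sex, array set or replicate number as a block, the first set alone, median centring, quantile normalization, other filters, an offset of 16, the mean of probe sets, an intensity trend and leaving out each array.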

Additional observations from a re-analysis of the deposited data

How the results depend on the processing

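The differences of the 10 genes from WT kept their sign under every alternative run. In Sle1.3 versus WT 7 to 9 of them passed under the alternatives that kept all mice or used the first set alone, in Sle1.3/E2-2het versus WT 5 to 9, and in Sle1.3/E2-2het versus Sle1.3 none. Leaving out each mouse in turn gave 0 to 9, 0 to 8 and 0. Mmp8 in Sle1.3 versus WT lost its call with labelled sex, quantile normalization, no filter or the offset (adjusted p = 0.0603 to 0.0767), and Ltf and S100a9 in Sle1.3/E2-2het versus WT with no filter (0.0505 and 0.0516). With the replicate block Cd177 passed in Sle1.3/E2-2het versus WT (adjusted p = 0.00920) and in Sle1.3 versus WT (0.00253) and Mmp8 in Sle1.3/E2-2het versus WT (0.00478). The block changed no other call of the 10 genes, and its pairing of WT mice by number was not shown by the labels or the data.

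Counts over all genes moved far more. Sle1.3 versus WT had 879 calls as reported, 199 with labelled sex, 3585 with the array-set block, 2367 on the first set, 4410 with the replicate block, 2555 with median centring and 538 with no filter. Sle1.3/E2-2het versus WT had 1076, and in the same order 492, 5092, 5086, 6008, 4175 and 619. Median centring shifted the median of all genes to -0.18 and -0.11 in Sle1.3/E2-2het and Sle1.3 versus WT, and 789 against 3386 and 633 against 1922 genes were then higher and lower. Sle1.3/E2-2het versus Sle1.3 had 2 calls, 92 with the array-set block, 79 on the first set, 262 with the replicate block, 27 with median centring, 18 with quantile normalization and 13 with the 50th percentile filter. It had 0 in limma with labelled sex, no filter and the offset (392, 568 and 682 at an unadjusted p under 0.05). Leaving out each mouse gave 2 to 1658, 5 to 2583 and 0 to 78 calls. The cause of these shifts was not tested.

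Small, uncalled differences of Sle1.3/E2-2het from Sle1.3 changed sign. On the first set alone Mmp8 was 0.17, Ly6g 0.0853, Cd177 0.0292 and S100a9 0.46. With labelled sex Mmp9 was -0.0962 and S100a8 -0.17, with median centring -0.0044 and -0.0015, and S100a8 was -0.0385 with quantile normalization. Leaving out each mouse in turn gave ranges of -0.88 to 0.0450 for Lcn2, -1.19 to 0.12 for Mmp8, -0.51 to 0.34 for Mmp9, -1.0 to 0.0628 for Ly6g, -0.58 to 0.38 for S100a8 and -0.74 to 0.25 for S100a9. The lower ends of these 6 ranges came without Sle1.3 replicate 2.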
